A study of Caenorhabditis elegans with 2 samples.

Results

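The col genes of Caenorhabditis elegans were examined for binding of the nuclear receptor NHR-6, with ChIP-seq, which sequences the DNA recovered with a protein by immunoprecipitation. They were taken as all protein-coding genes whose name starts with col- in the Ensembl annotation of build WBcel235, which gave 156 of 19973 protein-coding genes on the nuclear chromosomes. The worms were whole L4 larvae of strain OP90, with male and female worms pooled. This strain carries the unc-119(ed3) mutation and the integrated transgene wgIs90, which supplies NHR-6 tagged with eGFP. There was 1 group with 2 biological replicates, so no conditions could be compared, and both replicates share the strain and transgene. The nearest col gene to nhr-6, col-89, lay 1174546 bp from it on chromosome III.

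The cuticle of the worm is an exoskeleton that the epidermis secretes and rebuilds at every moult. Its main proteins are small collagens, made as chains with repeats of glycine and other residues, hydroxylated and folded in the endoplasmic reticulum, trimmed by proteases and cross-linked outside the cell. Most genes of this large family carry the name col, and their transcripts rise and fall with the moulting cycle. A few col genes encode other kinds of collagen, such as the transmembrane collagen COL-99. NHR-6 belongs to the NR4A nuclear receptors and is known for its role in the development of the spermatheca.

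Peaks came from 4 deposited lists in build ce11. Each replicate had a relaxed list, with 26801 peaks in replicate 1 and 30000 in replicate 2, another relaxed list of 30000 peaks was called on the pooled replicates, and 2720 of the pooled peaks passed the authors' threshold on the irreproducible discovery rate. These were the 2720 pooled peaks of highest signal. A relaxed list holds peaks and background by its own description. The promoter window of a gene held the 1000 bp before its annotated 5′ end and the 200 bp after it, and a gene was counted when the summit of a peak lay in it. The signal is the authors' own value for each peak and was read only within its list. Read depth is unknown from peak lists, and no test was applied to the counts below.

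Few col genes carried a thresholded peak in the promoter window. These were 5 of 156 (3.21%, Wilson 95% interval 1.38 to 7.28%, for the counting of genes only), against 10.5% of all protein-coding genes. The 5 were col-38, col-2, col-185, col-71 and col-167, in order of signal. Of these, only the summit of col-167 lay in the window of no other protein-coding gene and not within 200 bp of a tRNA, snoRNA or snRNA gene. The summits of col-38, col-2 and col-71 lay nearer to the 5′ end of a gene on the opposite strand, and that of col-185 lay inside a tRNA gene. When a summit was given only to the nearest protein-coding 5′ end, 2 col genes remained, col-167 and col-185. Without replicate 1, the 2720 strongest peaks of replicate 2 gave 3 col genes, col-2, col-38 and col-63, and without replicate 2 those of replicate 1 gave the same 5 genes as the thresholded list.

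**Figure D1:**
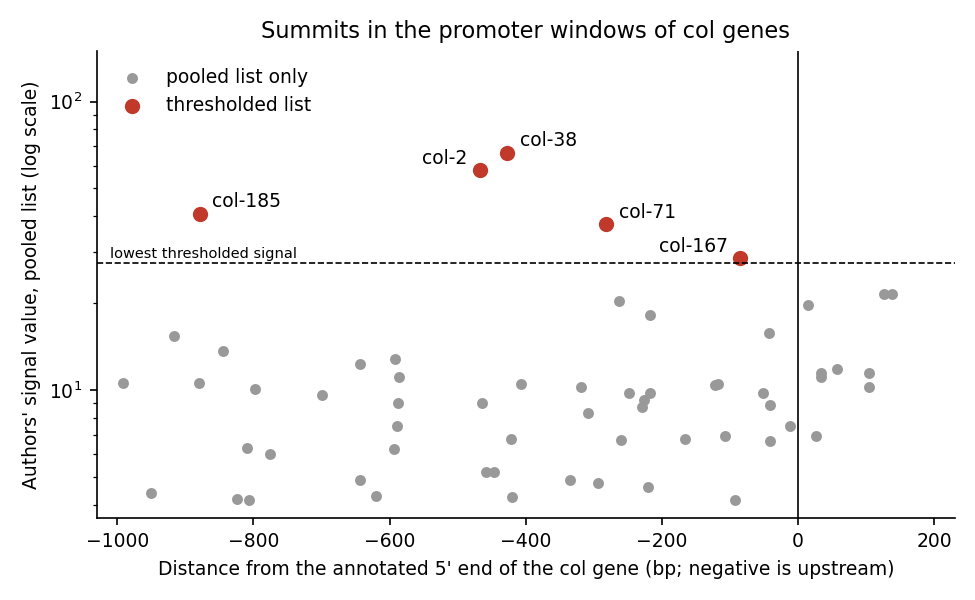
Signal of each pooled summit (vertical, log scale, the authors' units) against its distance from the annotated 5′ end of the col gene in whose window it lies (horizontal, bp). Red points are the 5 thresholded summits, all upstream of the 5′ end, and the dashed line is the lowest thresholded signal, 27.5; the grey points, from the pooled list only, lie at 21.6 or below.

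The sequences at the summits shared with a neighbouring gene show what lies under the strongest of these peaks. Each is 101 bases centred on the thresholded summit, from the RefSeq copy of WBcel235, written 5′ to 3′ on the strand of the col gene. Capitals mark matches on either strand to any of 6 motifs. The first is AAAGGTCA, the known binding site of NR4A receptors as monomers, and the next is its core, AGGTCA, so these overlap. The repeat GAGAGA was searched because worm promoters often hold it. The others were TGANTCA, the site of AP-1 factors, then GATAAG, that of GATA factors, and lastly TATAAA, the TATA box.
col-38 (chrII:8569465-8569565, minus strand): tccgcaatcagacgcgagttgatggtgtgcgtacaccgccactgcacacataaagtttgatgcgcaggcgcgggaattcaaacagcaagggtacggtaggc
col-2 (chrIV:10085868-10085968, minus strand): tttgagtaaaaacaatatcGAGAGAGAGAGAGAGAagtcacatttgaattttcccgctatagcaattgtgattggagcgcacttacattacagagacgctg
col-71 (chrII:3502802-3502902, minus strand): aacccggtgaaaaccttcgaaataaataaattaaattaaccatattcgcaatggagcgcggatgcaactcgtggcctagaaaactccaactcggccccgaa
Those of col-38 and col-71 held none of the 6 motifs. That of col-2 held a run of GAGAGA repeats, and GAGAGA was within 50 bp of 27.3% of all 2720 thresholded summits.

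The strongest, with a signal of 66.5 and rank 302 of 2720, lay between col-38 (WBGene00000615, chromosome II, 8568035 to 8569088) and rpl-5, which encodes a protein of the large ribosomal subunit. It was 427 bp upstream of col-38 and 412 bp upstream of rpl-5, whose annotated 5′ ends are 839 bp apart. In the replicate lists the strongest summit in the col-38 window had a signal of 33.0 at rank 402 in replicate 1 and 37.7 at rank 270 in replicate 2, and these summits were 28 bp apart. Both replicates thus placed it high in their lists. The 101 bases overlapped 2 annotated noncoding RNA genes, F54C9.16 and F54C9.17, and had a GC content of 55.4%.

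The next summit, of signal 58.0 and rank 462, lay in the 686 bp between the 5′ ends of col-2 (WBGene00000593, chromosome IV, 10084439 to 10085451) and ndc-80, a kinetochore component. It was 467 bp upstream of col-2 and 219 bp upstream of ndc-80. Signals were 33.1 at rank 398 in replicate 1 and 24.6 at rank 904 in replicate 2, with summits 17 bp apart. This and the col-38 peak were the only 2 of the 5 that also ranked within the first 2720 peaks of both replicates.

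The summit at col-71 (WBGene00000647, chromosome II, 3500077 to 3502570) had a signal of 37.6 and rank 1485. It was 282 bp upstream of col-71 and 116 bp upstream of Y49F6B.2, in a gap of 398 bp. The replicates differed more here, with 27.1 at rank 727 in replicate 1 and 11.3 at rank 4191 in replicate 2, although the summits were 5 bp apart. Replicate 2 thus held the peak at the same place but outside its 2720 strongest.

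The summit of col-167 (WBGene00000740, chromosome X, 6323488 to 6324393) was 85 bp upstream of the annotated 5′ end and in the window of no other protein-coding gene, the nearest divergent start being 3842 bp away. It had the lowest signal of the 5, 28.7 at rank 2538, close to the limit of 27.5. Replicate 1 gave 22.96 at rank 1121 and replicate 2 gave 9.67 at rank 5369, 23 bp apart. The peak was again higher in the list of replicate 1. The 250 bases that end at the annotated 5′ end are shown, with the 6 motifs again in capitals. They were chosen because no other of the 5 summits lay both in the window of a col gene alone and more than 200 bp from these small RNA genes.
col-167 (chrX:6323238-6323487, plus strand): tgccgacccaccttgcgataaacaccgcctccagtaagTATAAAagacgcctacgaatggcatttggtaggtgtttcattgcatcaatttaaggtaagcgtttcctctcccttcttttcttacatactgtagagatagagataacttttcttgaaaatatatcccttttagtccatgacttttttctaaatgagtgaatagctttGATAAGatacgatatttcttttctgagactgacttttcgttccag
A TATAAA match and a GATAAG match lie on either side of the summit, which is base 166 of this stretch. Within 50 bp of the summit only GATAAG was found and the GC content was 28.7%.

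The remaining thresholded promoter summit, 879 bp upstream of col-185 (WBGene00000758, chromosome X, 13510035 to 13511097), lay within the tRNA gene WBGene00014413 at 13511970 to 13512041. Its signal was 40.9 at rank 1207, with 26.4 at rank 777 in replicate 1 and 14.2 at rank 2878 in replicate 2. Of the 5 it was the farthest from its col gene, close to the outer edge of the window. In all 4 lists col-185 was the only col gene with a promoter summit within 200 bp of a tRNA, snoRNA or snRNA gene, and it was also the only one of the 156 with such a gene inside its window (0.641%, against 1.35% of all protein-coding genes). Among all 1568 thresholded promoter summits, 3.70% lay that close to one.

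Outside the promoter windows, thresholded summits fell inside 3 col genes, all in introns. That of col-85 was 387 bp downstream of the 5′ end with a signal of 38.6 (rank 1405) and lay 33 bp from a tRNA gene in the same intron. That of col-54 was 461 bp downstream with 35.5 (rank 1671) and lay 15 bp from a tRNA gene. That of col-159 was 1347 bp downstream with 50.1 (rank 743) and was 173730 bp from the nearest of these small RNA genes. Replicate 1 held the 3 summits at signals of 18.9, 21.2 and 27.4 in this order, and replicate 2 at 23.6, 14.7 and 21.6, each within 50 bp of the thresholded one. Inside all protein-coding genes, 3.08% had a thresholded summit, against 1.92% of col genes. Altogether 8 thresholded summits lay in the window or body of a col gene. Of these, 3 were within 200 bp of a tRNA gene, 3 were shared with a divergent gene, and 2, those of col-167 and col-159, were neither. The same classes were not counted for the windows and bodies of all genes, so none is read as particular to col genes. Of all 2097 genes with a thresholded promoter summit, 924 had another protein-coding 5′ end within 1000 bp upstream on the opposite strand.

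The sequences at tRNA genes are shown because they hold a promoter of another kind. RNA polymerase III transcribes tRNA genes from elements inside the gene, the A box and the B box. Here capitals mark the bases of the tRNA gene within the 101 bases around the summit, on the strand of the tRNA gene.
col-185 (chrX:13511926-13512026, minus strand): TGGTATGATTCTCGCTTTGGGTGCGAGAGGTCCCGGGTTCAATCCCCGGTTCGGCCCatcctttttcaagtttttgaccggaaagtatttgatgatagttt
col-85 (chrII:12494658-12494758, plus strand): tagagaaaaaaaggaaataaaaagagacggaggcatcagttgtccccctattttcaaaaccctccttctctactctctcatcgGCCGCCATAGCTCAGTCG
At col-185 the window covered 57 of the 72 bases of the tRNA gene, and at col-85 it covered the first 18 of 74. A B box was found in all 3 tRNA genes at these summits, in 82.2% of the 612 tRNA genes and in 0.285% of the promoters of protein-coding genes, taken as the 300 bases from 250 before the 5′ end to 50 after it. The tRNA genes were searched on their own strand and the promoters on both strands, so these shares are unlike measures. Of the 156 col genes, 4 had a tRNA gene within them, col-99, col-72, col-85 and col-54 (2.56%), against 1.14% of all protein-coding genes. No untagged strain or other factor was analysed here, so the part of the tagged protein in the peaks at tRNA genes was not tested.

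Shared upstream regions were less common among col genes than among all genes. Another protein-coding 5′ end lay within 1000 bp upstream on the opposite strand for 19 of 156 col genes (12.2%) and for 17.7% of all protein-coding genes. Among the 19, 3 had a thresholded promoter summit (15.8%), against 26.1% of all 3539 genes with such a neighbour. Among the other 137 col genes 2 had one (1.46%), against 7.14% of all 16434 genes without such a neighbour. The Wilson interval for col genes was 5.52 to 37.6% with such a neighbour and 0.401 to 5.17% without one. These intervals are for the counting of genes only and are no test against the share for all genes, since genes are not replicates. The 2 genes without such a neighbour were col-167 and col-185, and the summit of col-185 lay inside a tRNA gene. The median distance to the next gene upstream was 857 bp for col genes and 938 bp for all, and the median gene length was 1220 bp against 2027 bp.

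**Figure D2:**
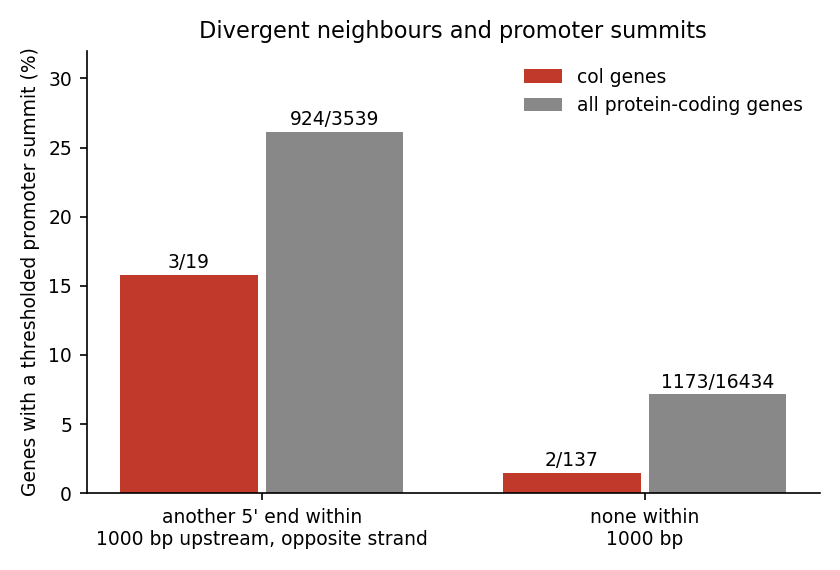
Share of genes with a thresholded promoter summit (vertical, %), for genes with and without another protein-coding 5′ end within 1000 bp upstream on the opposite strand. Red bars are col genes, at 15.8% and 1.46%, and grey bars are all protein-coding genes, at 26.1% and 7.14%; the counts stand above the bars.

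Weaker summits were more widespread. In the pooled list 47 col genes had a promoter summit (30.1%, Wilson interval 23.5 to 37.7%), against 41.0% of all protein-coding genes. In the list of replicate 1 there were 54 (34.6%, against 38.8%) and in that of replicate 2 there were 49 (31.4%, against 41.9%). None in any list was found for 79 col genes (50.6%), against 44.7% of all protein-coding genes. Of the 59 distinct pooled summits, which include the 5 thresholded ones, 51 were nearest to the 5′ end of a col gene. The other 8 were nearest to rpl-5, ndc-80, Y49F6B.2, ugt-1, C15A11.7 or mrps-21. A summit in the window of a gene lies close to that gene by construction, and the matching share over all genes was not counted.

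The 42 col genes with a pooled but no thresholded summit had signals from 4.14 to 21.6, with a median of 9.74, and 16 of them ranked below 15000 of the 30000 pooled peaks. Of all protein-coding genes, 2097 had a thresholded promoter summit, 6025 had one among the 15000 strongest pooled peaks and 8184 had one in the whole list. For col genes these counts were 5, 31 and 47, so the 16 are not read as a trait of col genes. No col gene lay close below the threshold. The next members in order of signal were col-159 and col-160, whose annotated 5′ ends are 12 bp apart on the same strand and which share a summit of signal 21.6 (rank 4001), 126 and 138 bp downstream. Next came col-166 with 20.4 (263 bp upstream, rank 4349), col-162 with 19.7 (14 bp downstream, rank 4541), col-142 with 18.2 (217 bp upstream, rank 5080) and col-107 with 15.7 (43 bp upstream, rank 6210). The rest of the 10 strongest were col-111 with 15.4, col-93 with 13.6, col-63 with 12.8 and col-103 with 11.8. Of these, col-111 had no promoter summit in replicate 2 and col-63 had none in replicate 1. The pooled summit of col-111 was nearer to the 5′ end of mrps-21. Of the 42 genes, 22 had a promoter summit in both replicate lists, and 5 of the 47 had one in neither. The matching shares over all genes were not counted. On the side of position, the outermost thresholded summit inside the window was that of col-185 at 879 bp upstream, and the nearest one beyond its upstream edge was 1786 bp upstream of col-94, with a signal of 45.6. Like that of col-185, the col-94 summit lay within 200 bp of a tRNA, snoRNA or snRNA gene.

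At each depth of the pooled list examined, a smaller share of col genes than of all genes had a promoter summit. Among the 1000 strongest pooled peaks, summits fell in the windows of 1.28% of col genes and 4.62% of all genes, a ratio of 3.601, and among the 500 strongest the ratio was 1.94, both from the same count of 2 col genes. At 5000 peaks the shares were 5.77% and 16.5%, at 10000 they were 11.5% and 24.7%, and at 20000 they were 23.7% and 34.3%. At the end of the list, 30000 peaks, the ratio was 1.36. In steps of 250 peaks the share of col genes was the lower at all 120 steps, but each step holds the peaks of those before it, so the steps are not separate observations. The ratio moved up and down between 1000 and 5000 peaks, from 2.56 at 1500 to 4.43 at 4000, each resting on 4 or 5 col genes. The strongest pooled promoter summit had a median rank of 10928 over the 47 col genes and of 7090 over all 8184 genes with one.

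**Figure D3:**
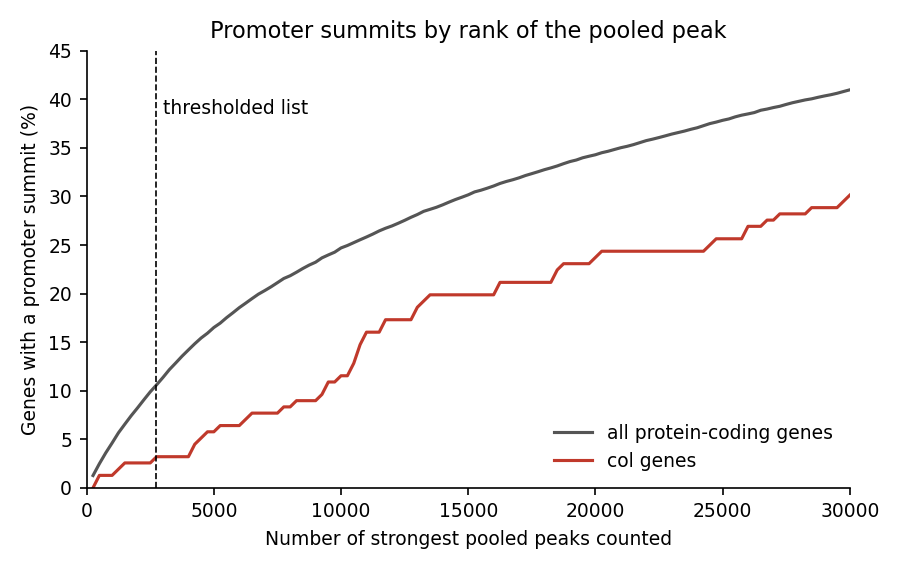
Share of genes with a promoter summit (vertical, %) among the strongest pooled peaks, by the number of peaks counted (horizontal). The red line is the 156 col genes and the grey line all protein-coding genes; they stand at 3.21% and 10.5% at the dashed line, where the thresholded list ends, and at 30.1% and 41.0% over the whole list.

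Many col genes had a promoter summit in 1 replicate alone, as did many other genes. A summit was present in both lists for 31 col genes (19.9%, against 28.0% of all protein-coding genes), in replicate 1 alone for 23 (14.7%, against 10.9%) and in replicate 2 alone for 18 (11.5%, against 13.9%). In 23 of the 31, the strongest summits of the replicates lay within 200 bp of each other, with a median distance of 88 bp over the 31. The matching distances over all genes were not computed. Across these 31 genes Spearman's rho between the log2 signals of the replicates was 0.68, and across the 5584 protein-coding genes with a summit in both lists it was 0.63. The points are genes of the same pair of libraries, some share a peak, and signals of the lists are not shown to be on one scale. Apart from the 5 thresholded genes, those whose poorer rank in the replicates was best were col-42 (10.7 at rank 4375 in replicate 1, 12.6 at rank 3544 in replicate 2), col-162 (9.13 and 13.3), col-166 (13.9 and 9.37), col-93 (6.999 and 9.68) and col-159 (6.37 and 8.67). The strongest summits of the replicates were 579 bp apart at col-93, 157 bp at col-162, 124 bp at col-159 and 84 bp at col-166, and those of col-42 lay 437 and 604 bp upstream, so a good rank in both lists does not mean the same position, least of all at col-93.

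**Figure D4:**
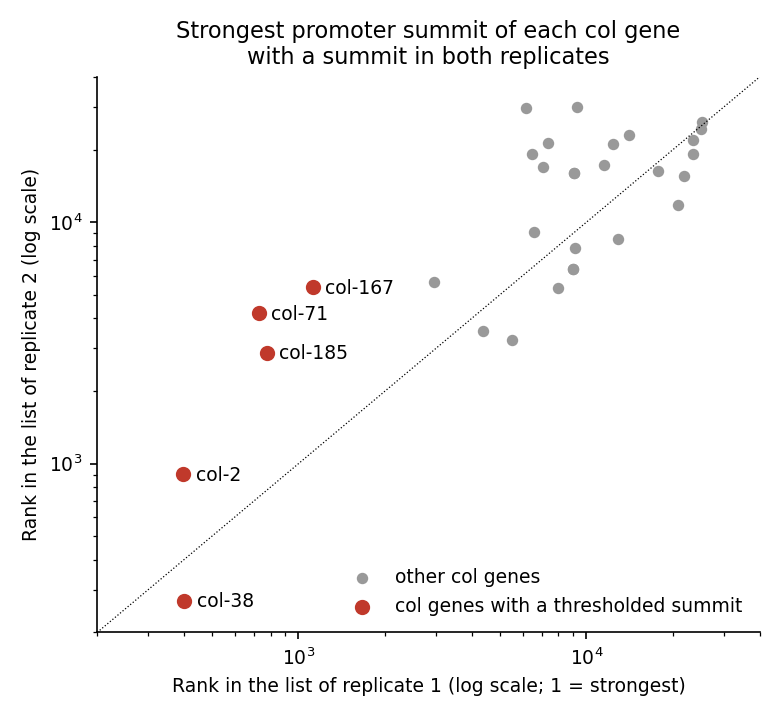
Rank of the strongest promoter summit in replicate 1 (horizontal, log scale) against that in replicate 2 (vertical, log scale) for the 31 col genes with a summit in both lists; 1 would be the strongest peak. Red points are the 5 genes with a thresholded summit, of which col-38 and col-2 are within rank 904 in both, and col-71, col-167 and col-185 rank between 727 and 1121 in replicate 1 and between 2878 and 5369 in replicate 2.

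The col genes are spread over all 6 nuclear chromosomes. Chromosome IV held 41 of them, V 31, X 27, II 24, I 21 and III 12. Thresholded promoter summits were at 2 of those on II, 2 on X and 1 on IV, and at none of those on I, III and V. Over all genes the share with one ran from 8.47% on V to 14.8% on III, and nothing is read from counts this small. In the pooled list the share with a promoter summit ran from 18.5% on X to 35.5% on V, against 42.1% and 31.7% of all genes on those chromosomes. The 11 of 31 col genes on V are close to the share for all genes there, and on the other 5 chromosomes the share of col genes was the lower.

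Of the 6 motifs, the TATA box had the largest difference in share between col promoters and all promoters. TATAAA was within the 300-base promoter of 103 of 156 col genes (66.0%) and of 37.9% of all protein-coding genes. GATAAG, bound by GATA factors that act in the epidermis among other tissues, was in 36 col promoters (23.1%, against 16.7%), GAGAGA in 42 (26.9%, against 21.8%), AGGTCA in 21 (13.5%, against 8.27%) and TGANTCA in 14 (8.97%, against 10.4%). The NR4A site AAAGGTCA, which contains AGGTCA, was in 1 col promoter and in 1.29% of all promoters. Mean GC content was 37.7% ± 5.21 (SD, n = 156) in col promoters and 34.8% ± 5.30 (n = 19973) in all. These are matches of letters, and longer or less exact sites were not searched.

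Within 50 bp of the 59 pooled summits in col windows, AAAGGTCA was found at none (against 0.551%) and AGGTCA at 2 (3.39%, against 3.04% of all 8895 pooled promoter summits). GATAAG was at 8 (13.6%, against 7.94%), TATAAA at 7 (11.9%, against 9.27%), GAGAGA at 6 (10.2%, against 13.3%) and TGANTCA at 1 (1.69%, against 4.34%). None of the 6 motifs was found at 38 of the 59 (64.4%), close to the 66.6% of all pooled promoter summits. GC content there was 41.5% ± 9.20 (SD, n = 59), against 39.3% ± 8.96 (n = 8895).

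Other genes of the cuticle, with 3 basement membrane collagen genes set beside them, were counted in the same way, 97 in all. Of these, 5 had a thresholded promoter summit (5.15%, against 10.5% of all protein-coding genes) and 36 a pooled one (37.1%, against 41.0%). Among 20 collagen genes named for their mutant phenotypes (bli, dpy, lon, rol and sqt genes) only bli-6 had a thresholded one, with a signal of 43.2, 368 bp upstream of bli-6 and also in the window of hrpf-2. This summit was nearer to the 5′ end of hrpf-2 than to that of bli-6. Replicate 1 placed it at rank 1370 and replicate 2 at rank 781.

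Of 18 genes for collagen processing and cross-linking, 3 had one (16.7%, against 10.5% of all protein-coding genes). Nothing is read from a count this small. That of pdi-1, a protein disulfide isomerase, had a signal of 53.5 and lay 282 bp upstream, also in the window of C14B1.2. That of dpy-11, a thioredoxin-like enzyme of the epidermis, had 41.5 and lay 89 bp downstream of the 5′ end. That of pdi-2, which forms part of the collagen prolyl 4-hydroxylase, had 39.0 and lay 3 bp downstream. In replicate 2 these ranked 427, 708 and 985, and in replicate 1 they ranked 1252, 1587 and 3067. Each was thus higher in the list of replicate 2, unlike col-71, col-167 and col-185.

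Among 15 regulators of moulting and the cuticle, only myrf-1, a membrane-bound transcription factor, had a thresholded promoter summit, with a signal of 43.4 at 293 bp upstream. None of 41 genes for cuticlins and the apical matrix had one (against 10.5% of all protein-coding genes), and 12 of them had a pooled one (29.3%, against 41.0%). None of the 3 basement membrane collagen genes had one, and 1 of them had a pooled one.

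**Figure D5:**
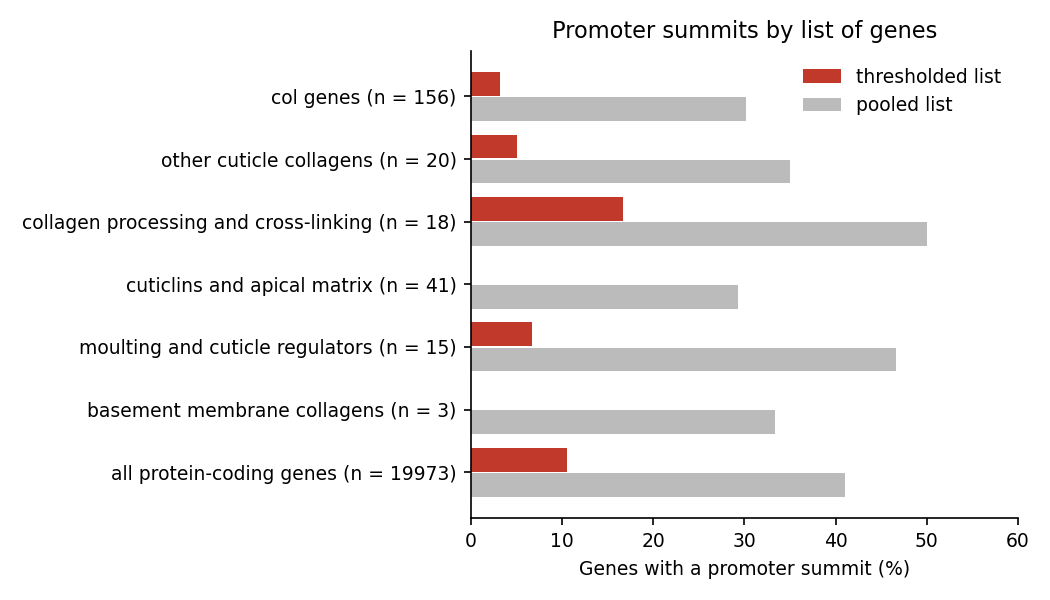
Share of genes with a promoter summit (horizontal, %) in the thresholded list (red) and the pooled list (grey), for col genes, 5 lists of other cuticle or collagen genes and all protein-coding genes. The number of genes follows each name; the col genes stand at 3.21% and 30.1%, collagen processing genes at 3 and 9 of 18, and all protein-coding genes at 10.5% and 41.0%.

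Some col windows have near copies elsewhere in the genome, where short reads can be hard to place. A stretch of 200 bp or more at 95% identity or above was found for 8 of the 156 windows, those of col-56, col-62, col-126, col-111, col-168, col-170, col-146 and col-147. The longest was 591 bp at 96.8% identity, for col-56. None of the 5 genes with a thresholded summit was among them.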

How the data were processed

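The data are ChIP-seq peak lists for NHR-6 carrying an eGFP tag, from L4 larvae. Per the deposited text listings, the authors called relaxed peaks for each replicate and for the pooled replicates against a control alignment, and thresholded them by irreproducible discovery rate. Aligner, peak caller and settings: not given in the sources used here. For each peak the deposited signal value has no stated scale. The deposited −log10 q-value was at its maximum in all 2720 thresholded peaks, so it was not used to rank. Ranks in replicate 1 count its mitochondrial peaks. The ce10 lists were not used here.

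Genes came from Ensembl release 115 (WBcel235, the assembly of ce11), whose chromosomes hold every nuclear ce11 peak. Sequences came from the RefSeq copy of WBcel235. Where a window held several summits, the strongest was described. Near copies were sought with BLAST+ 2.17.0 at 95% identity. The remaining steps used Python 3.11.15, numpy 2.4.6, pandas 2.3.3, scipy 1.17.1 and matplotlib 3.10.9. The window count was tested on simulated data. Wilson intervals are at 95%.

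No test was run, since there is 1 group of 2 replicates and genes are not replicates. The members and gene lists were chosen with earlier results of these data known. Named were all col genes with a thresholded summit, the 10 strongest of the others in the pooled list, the 10 ranking best in both replicates, genes sharing those summits or nearer to them, col genes whose promoter summit lies near a small RNA gene, and cuticle genes with a thresholded summit. Of the listed cuticle genes ram-4 was not found under that name. Other genes, among them those with summits in introns, were named after their values were seen. Alternatives changed the window, the 5′ end, the overlap rule, the number of peaks and the replicate used.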

Additional observations from a re-analysis of the deposited data

How the results depend on the processing

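Of 38 alternative counts, 28 were within 1.5 times the reported count. The 5 col genes with a thresholded promoter summit became 3 among the 1360 strongest peaks and 2 when only the nearest 5′ end was counted, and using 1 replicate alone gave 3 to 5. The 47 with a pooled summit became 71 with a window of 2000 bp upstream and 31 among the 15000 strongest peaks. The 31 with a summit in both replicates became 48 with the wider window and 14 when only peaks above the median signal of each list were counted. The 1 col gene with a thresholded summit near a small RNA gene became 0 when the window held 500 bp before the 5′ end and 100 bp after it, 2 with that of 2000 bp (the second is col-94), and 0 to 1 with 1 replicate alone. The share of col genes with a thresholded summit was below that of all genes in each setting where both were counted. It was lowest at 1.92%, against 9.91% without replicate 1 and against 6.07% among the 1360 strongest peaks. It was highest at 3.85%, against 13.5%, in the wider window. Without replicate 2 it was 3.21%, against 9.99%. All counts for the other cuticle and collagen genes stayed between 4 and 6, against 5. Changes with window or list size follow from the construction of those settings. For the nearest 5′ end, the reason is that 3 of the 5 summits are nearer to another gene. The cause of the difference between replicates was not tested. Read depth is unknown, so the absence of a peak at a col gene says only that none was listed.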

Other observations

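Several col genes with a known stage or kind were looked up after the values had been seen. The adult collagen gene col-19 had no promoter summit in any of the 4 lists, and neither did col-7 or col-13. The same held for 50.6% of col genes and 44.7% of all protein-coding genes, so nothing is read from these absences. The gene col-12, closely related to col-13, had a pooled summit of signal 10.2, and col-10 one of 11.5. In replicates 1 and 2 the strongest summit of col-10 ranked 6560 and 9080, and that of col-12 ranked 14107 and 22885. The gene col-120 had a pooled signal of 10.6 and no summit in replicate 1. The transmembrane collagen gene col-99 had a pooled signal of 6.31 at rank 19855.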
